A study of Mus musculus with 16 samples.

Results

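Gene expression in the whole brain, cerebellum included, was compared between adolescent female C57BL/6J mice that drank both nicotine and ethanol (group NE) and mice that drank only water (group WW). The comparison uses 8 of the 16 mice of the study, 4 NE mice (replicates 2, 3, 4 and 5) and 4 WW mice (replicates 18, 19, 20 and 21), each giving 1 RNA-seq library. For NE mice every bottle held nicotine (200 µg/ml) for 22 h per day. On the last 4 days 20% v/v ethanol was added by Drinking-in-the-Dark, where 1 drinking tube takes the place of all bottles during the dark hours. Sessions lasted 2 h, the last one 4 h, and the last one ended with dissection on postnatal day 45. The nicotine bottles were off the cage during the session, so ethanol was the agent at hand when tissue was taken. WW mice went through the same bottle changes with tap water, and all mice of the study were singly housed. The other groups, used only where NE is set beside a single substance, are Water-Ethanol (4 mice, ethanol with water in place of nicotine) and NW (4 mice, nicotine with water in place of ethanol). Drinking was voluntary, so the dose differed between mice, and intakes per mouse were not analysed here.

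Nicotine acts on nicotinic acetylcholine receptors, cation channels that drive the release of dopamine, glutamate, GABA and acetylcholine. Ethanol has no single receptor. It modulates GABA-A, glutamate and other channels, is oxidised to acetaldehyde and acetate, enters cell membranes and raises the measured osmolality of blood. Brain cells also carry transporters for organic osmolytes such as taurine and myo-inositol, whose link to ethanol was not tested here. A whole-brain library averages neurons, glia, vessels, meninges and choroid plexus, so a change confined to a small region or cell type is diluted, and fewer cells of a type cannot be told apart from less RNA per cell.

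Counted reads per library ran from 27100352 to 31919838 over the 8 mice, and 15313 of the 24062 genes in the table had enough reads to be tested. Levels are given as normalized counts, read counts scaled with edgeR's TMM factors to the mean library size of the 8 mice, and are not scaled for gene length. Summed levels of marker lists, and means of the other groups, were scaled in the same way over all mice of the study. A gene is called a differentially expressed gene (DEG) when edgeR's quasi-likelihood test gave a Benjamini-Hochberg adjusted p-value under 0.05 over all genes tested. Fold changes are log2 of NE over WW, with their standard error (SE). The labels do not say whether mice shared a litter or an extraction day. A pair of WW libraries stood apart in region markers. WW replicate 21 was low in genes of cerebellar neurons (Gabra6, the granule cell GABA-A subunit, 4130, 4459.8, 3944 and 1059 normalized counts in WW replicates 18, 19, 20 and 21), and WW replicate 20 held transcripts of the olfactory epithelium, a nasal tissue (Cyp2g1, 0, 1.9, 144.8 and 1 in the same order). NE mice had 3541, 3398, 3647 and 3925 for Gabra6, in the order of their replicates, and 1.8, 32.7, 0 and 0 for Cyp2g1. Counts of DEG are therefore given with and without these libraries.

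Between NE and WW, 48 genes were DEG, 0.313% of the genes tested. Of these, 30 rose in NE (0.196%) and 18 fell (0.118%). Changes were small. The genes that rose were 13.2% to 151% higher in NE, the others fell by 11.1% at the least and fell by 22.7% at the most, and 47 of the 48 changed by less than 2-fold. In all 48 genes the 4 NE mice lay on one side of the 4 WW mice, which was also true of 5.43% (higher) and 5.31% (lower) of all genes tested. At an unadjusted p-value under 0.05, 2673 genes (17.5%) differed, 1412 of them higher (9.22%) and 1261 lower (8.23%). These shares of all genes are the background against which each gene group is given. A group's counts were also taken without WW replicate 20 (7.12% of all genes higher, 6.25% lower), without WW replicate 21 (10.8% and 9.65%) and after a correction for GC content described below (6.9% and 6.01%), and are given where a count moved by more than 1.5 times and by at least 2 genes. The number of DEG rested on single mice. It was 283 (1.84% of the genes tested) without WW replicate 21, 3 without WW replicate 18, 2 without WW replicate 19, 1 (0.00649%) without WW replicate 20, 2 without NE replicate 2, 4 without NE replicate 3, 0 without NE replicate 4 and 11 without NE replicate 5. All 48 DEG remained so without WW replicate 21, whereas without WW replicate 20 only Serinc2 did. Without both WW replicates 20 and 21, an alternative chosen after the data were examined, edgeR called 0 genes, with 2369 (15.3%) at an unadjusted p-value under 0.05. DESeq2 called 508 genes on all 8 mice (4.27% of the genes it adjusted), among them 47 of the 48. A fit of all 16 mice with cerebellum and olfactory bulb scores as covariates called 59 genes between NE and WW (0.378%), among them 22 of the 48, 16 higher and 6 lower.

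**Figure D1:**
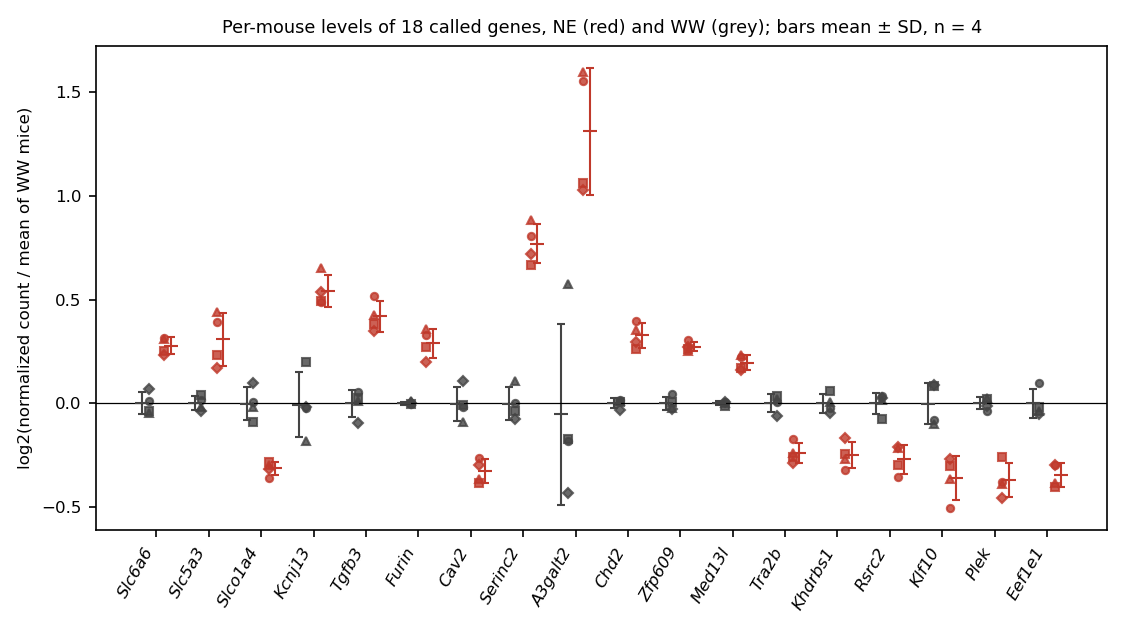
Levels of 18 DEG in each mouse, as log2 of the normalized count over the mean of the 4 WW mice (y axis), by gene (x axis). Grey points are WW mice and red points NE mice (circle, square, triangle and diamond in the order of replicates), and bars give mean ± SD (n = 4). For each gene the red points lie all above or all below the grey ones, with A3galt2 furthest from 0 and most scattered among WW mice.

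The clearest single change was in Serinc2, a member of the serine incorporator family of membrane proteins (chromosome 4 from 130253497 to 130275586, minus strand, GRCm38). Its normalized counts were 169.5, 165, 183 and 161 in the WW mice and 296, 269, 313 and 279 in the NE mice. Every NE mouse lay well above every WW mouse, and the fold change was 0.77 (SE 0.079, edgeR adjusted p = 0.00772), or 70.7% higher. It was a DEG under 16 of 18 alternative settings, with adjusted p-values from 2.54e-13 to 0.0782. Of the 4 family members with enough reads it alone was a DEG. Serinc1 was lower in every NE mouse than in any WW mouse (33480 to 34753 against 35907 to 38496, fold change -0.12, edgeR adjusted p = 0.112) and did not pass the test. A3galt2, the galactosyltransferase that makes the glycolipid isoglobotriaosylceramide, had the largest fold change, 1.33 (SE 0.24, edgeR adjusted p = 0.0453), at the lowest read count of any DEG. Its counts were 16.1, 16.2, 27.2 and 13.5 in WW and 53.6, 38.1, 55.2 and 37.2 in NE, so the WW mice themselves spanned 13.5 to 27.2, and DESeq2 gave it no adjusted p-value.

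The promoters of 5 DEG are shown because they belong to the transporters, channel and membrane genes described first, and they differ widely in composition. Each sequence is the 250 bases before the gene's start in the RefSeq promoter table (GRCm38.p6), written 5′ to 3′ on the gene's own strand. Capitals mark the GC box, GGGCGG or CCGCCC on the other strand, and the letters TGGAAA or TTTCCA on the other strand, which form the core shared by the elements bound by NFAT family factors. Overlapping matches run together.
Serinc2 (chr4:130275587-130275836, minus strand): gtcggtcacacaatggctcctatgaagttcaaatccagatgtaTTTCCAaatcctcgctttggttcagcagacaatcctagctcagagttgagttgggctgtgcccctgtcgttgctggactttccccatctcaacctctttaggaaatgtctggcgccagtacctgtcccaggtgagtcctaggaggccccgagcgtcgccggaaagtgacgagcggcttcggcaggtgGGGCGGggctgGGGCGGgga
Slc5a3 (chr16:92058072-92058321, plus strand): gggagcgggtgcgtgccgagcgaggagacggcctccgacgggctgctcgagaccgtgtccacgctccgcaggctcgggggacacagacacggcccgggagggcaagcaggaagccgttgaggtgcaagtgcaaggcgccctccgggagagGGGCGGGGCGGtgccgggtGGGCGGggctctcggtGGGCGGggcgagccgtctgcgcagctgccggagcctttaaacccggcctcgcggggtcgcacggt
Kcnj13 (chr1:87394730-87394979, minus strand): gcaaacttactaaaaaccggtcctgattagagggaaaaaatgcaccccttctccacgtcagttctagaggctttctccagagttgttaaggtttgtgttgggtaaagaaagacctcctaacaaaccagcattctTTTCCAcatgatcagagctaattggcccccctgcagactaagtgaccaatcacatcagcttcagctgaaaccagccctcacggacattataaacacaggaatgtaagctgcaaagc
Slco1a4 (chr6:141856221-141856470, minus strand): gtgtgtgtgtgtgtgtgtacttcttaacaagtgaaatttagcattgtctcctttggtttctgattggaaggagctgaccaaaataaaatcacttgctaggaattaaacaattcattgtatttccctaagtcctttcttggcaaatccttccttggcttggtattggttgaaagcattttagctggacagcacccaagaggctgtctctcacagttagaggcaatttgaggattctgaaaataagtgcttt
Cav2 (chr6:17280935-17281184, plus strand): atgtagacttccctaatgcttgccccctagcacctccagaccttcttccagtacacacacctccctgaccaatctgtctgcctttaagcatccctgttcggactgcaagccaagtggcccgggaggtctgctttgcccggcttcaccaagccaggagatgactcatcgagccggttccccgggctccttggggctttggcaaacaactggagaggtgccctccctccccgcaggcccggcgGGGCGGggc
The Slc5a3 window was 74.8% G and C with 4 GC boxes and no TGGAAA, and that of Slco1a4 was 39.2% with neither. Of the 48 DEG, 31 matched a window. The GC box was in 18 of these 31 (58.1%), in 10 of 19 windows of genes that rose and 8 of 12 of genes that fell, against 58.4% of the 11400 windows of all genes tested. TGGAAA was in 10 of the 31 (32.3%, 6 of the genes that rose and 4 of those that fell) against 14.9% of all windows. The 31 windows had a median of 57.6% G and C, against 60% for all windows, and the share of TGGAAA was not adjusted for this. These matches describe letters in the window and were not tested.

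A pair of transporters for organic osmolytes rose. Slc6a6, the taurine transporter (chromosome 6 from 91684067 to 91759063), gave normalized counts of 5093, 4924, 4887 and 5299 in the WW mice and of 6279.5, 6016, 6255 and 5929.9 in the NE mice. The groups did not overlap, and Slc6a6 was 21.2% higher in NE (fold change 0.28, SE 0.037, edgeR adjusted p = 0.0259). Slc5a3, the sodium and myo-inositol cotransporter (chromosome 16 from 92058322 to 92087473), had 2615, 2658, 2559 and 2521 in WW and 3392, 3038, 3509 and 2917 in NE, with NE replicates 2 and 4 highest. It was 24.2% higher (fold change 0.31, SE 0.055, edgeR adjusted p = 0.0453), and it was not a DEG in the fit with marker scores (edgeR adjusted p = 0.243). Of its 10913 exon bases 145 are shared with Mrps6 on the same strand, a gene whose own fold change was 0.07 (edgeR adjusted p = 0.665). Of the 9 tested genes in the list of osmolyte transporters and targets of NFAT5, the transcription factor of the response to high osmolality, 2 rose, none fell and 7 did not pass. The list had 4 members with an unadjusted p-value under 0.05, all higher (44.4% against 9.22% of all genes), and its median fold change was 0.17 against 0.00 for all genes. Among the 7, the amino acid transporter Slc38a2 had 7692 to 9523 counts in WW and 9319.7 to 12646 in NE, with a fold change of 0.39 and an edgeR adjusted p of 0.0735, and NE replicate 5 lay below the highest WW mouse. Without WW replicate 20, 4 members were again higher and none lower at an unadjusted p-value under 0.05 (7.12% of all genes were higher). This list was drawn up with earlier results of these data known, so its counts are a description.

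Further genes of transport and membranes changed in both directions. Kcnj13, the inward rectifier potassium channel Kir7.1 of the choroid plexus epithelium (chromosome 1 from 87386284 to 87394729), gave normalized counts of 191, 222, 171 and 191 in WW and 272, 272, 305 and 281 in NE. It was 45.7% higher in NE (fold change 0.54, SE 0.089, edgeR adjusted p = 0.0372), with WW replicate 19 the nearest to the NE mice. It was the 1 DEG among 75 tested potassium channel genes, of which 9 were higher and 4 lower at an unadjusted p-value under 0.05 (12% and 5.33%), and also the 1 DEG among 12 markers of the choroid plexus. The other 11 choroid plexus markers did not pass, and the summed level of the 12 ran from 18745 to 23552 in WW and from 20753 to 23596 in NE, so that the groups overlapped in this sum. Car15, a carbonic anhydrase (chromosome 16 from 17835276 to 17838186), had 217, 220.3, 236 and 196 in WW and 299.9, 268, 319 and 311 in NE and rose by 37.8% (fold change 0.46, SE 0.082, edgeR adjusted p = 0.0453). Slc45a4, a solute carrier, was higher in all NE mice (1697 to 1746 against 1386 to 1496, fold change 0.25, edgeR adjusted p = 0.0372). Slco1a4, an organic anion transporter of the blood-brain barrier (chromosome 6 from 141805440 to 141856171), fell from 2517, 2350.5, 2468 and 2677 in the WW mice to 1950.2, 2055, 2037 and 2012 in the NE mice. Its fold change was -0.31 (SE 0.043, edgeR adjusted p = 0.0259), the smallest adjusted p of any gene that fell. Cav2, caveolin 2 of the membrane invaginations found in endothelium and other cells (chromosome 6 from 17281185 to 17289130), had 1465, 1477, 1396 and 1600.2 in WW and 1238, 1137, 1151 and 1208 in NE and fell by 20.2% (fold change -0.33, SE 0.05, edgeR adjusted p = 0.0372), and it was not a DEG in the fit with marker scores (edgeR adjusted p = 0.105).

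Genes of secreted signals and their processing were the next group. Tgfb3, the ligand TGF-beta 3 (chromosome 12 from 86056743 to 86079041), gave normalized counts of 491, 482, 477 and 442 in WW and 678, 617, 634 and 603 in NE. It was 33.9% higher (fold change 0.42, SE 0.057, edgeR adjusted p = 0.0259), with WW replicate 21 lowest. Furin, the protease that cleaves TGF-beta and many other precursors, had 1154, 1155, 1165 and 1157 in WW, a spread of under 1% of the mean, and 1452, 1398, 1484 and 1329.8 in NE (fold change 0.29, SE 0.044, edgeR adjusted p = 0.0372). These were the only DEG among 38 tested genes of TGF-beta and BMP signalling, of which 7 were higher and 3 lower at an unadjusted p-value under 0.05 (18.4% and 7.89%). Id2, a target of BMP signalling, was lower in all NE mice (2719 to 2775 against 2834 to 3208, fold change -0.18, edgeR adjusted p = 0.0835) and did not pass. Klf10, a transcription factor gene known as an early target of TGF-beta (chromosome 15 from 38291464 to 38300711), fell from 901, 1007, 889 and 1010.4 to 669.8, 771, 739 and 790.5 (fold change -0.36, SE 0.065, edgeR adjusted p = 0.0453). Id1 and Id3, related targets of BMP signalling named after their values were seen, had fold changes of 0.22 and 0.12 (edgeR adjusted p = 0.208 and 0.459), in the direction opposite to Id2. Spock3, which encodes the secreted proteoglycan testican 3, had 4995, 5153, 4815 and 4616 in WW and 4339, 4077, 3936 and 4045 in NE (fold change -0.26, SE 0.043, edgeR adjusted p = 0.0403).

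Intracellular signalling genes made up a further group, most of which rose. Zbed3, which encodes an Axin-binding protein of the Wnt pathway (chromosome 13 from 95325237 to 95337841), gave normalized counts of 262, 256, 247 and 276 in WW and 366, 302, 379.8 and 378 in NE, where replicate 3 stood below the other NE mice (fold change 0.46, SE 0.083, edgeR adjusted p = 0.046). Dixdc1, a positive regulator of Wnt signalling, had 4572 to 4735 in WW and 5286 to 5536 in NE (fold change 0.21, edgeR adjusted p = 0.0372). It was the 1 DEG of 32 tested genes on the Wnt list, where Axin1 (fold change 0.21, edgeR adjusted p = 0.0914) and Dvl1 (fold change 0.20, edgeR adjusted p = 0.1) were higher in all NE mice without passing. At an unadjusted p-value under 0.05, 4 genes of this list were higher and 3 lower (12.5% and 9.38%), Tcf7l2 among the lower ones, and without WW replicate 21 the counts were 3 and 1. Regulators downstream of growth factor and cytokine receptors also rose. They were Spred2, an inhibitor of the Ras and ERK cascade, by 18.4%, Elk1, a transcription factor phosphorylated by ERK, by 15.4%, and Socs7, a suppressor of cytokine signalling, by 13.2%. Rab40c, a small GTPase, rose by 19.9%. Adcy9, an adenylyl cyclase that makes cyclic AMP, rose by 16.6% (3518 to 3802 counts in NE against 3105 to 3224 in WW). Shank2, a scaffold of the excitatory postsynaptic density, had 5227 to 5274 in WW and 5752 to 6052 in NE and rose by 13.2%, the smallest rise of any DEG. Other signalling genes fell. Cyfip1, which encodes a partner of the fragile X protein and of the actin-regulating WAVE complex, fell by 11.1%, with 20.5% of its exon bases shared with Nipa2 on the opposite strand. Plek, which encodes pleckstrin, a protein kinase C substrate of blood and myeloid cells (chromosome 11 from 16971206 to 17008718), fell from 511, 531, 532 and 519 in WW to 402, 437, 399.6 and 382 in NE (fold change -0.37, SE 0.057, edgeR adjusted p = 0.0372), the largest fall of any DEG.

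Several chromatin and transcription genes rose. Chd2, a chromodomain helicase whose loss of function causes epilepsy in humans (chromosome 7 from 73426652 to 73541746), gave normalized counts of 2527, 2509, 2522 and 2439 in WW and 3284, 2996, 3196 and 3068 in NE, a rise of 25.5% (fold change 0.33, SE 0.038, edgeR adjusted p = 0.0121). It was a DEG under 14 of 18 alternative settings (adjusted p 1.09e-09 to 0.0858), and 7% of its exon bases are shared with 1810026B05Rik on the same strand. Zfp609, a zinc finger protein gene (chromosome 9 from 65691583 to 65827564), had 2279, 2223, 2178 and 2174 in WW and 2731, 2654, 2636 and 2675 in NE (fold change 0.27, SE 0.033, edgeR adjusted p = 0.0156). Med13l, a subunit of the Mediator kinase module, had 3812 to 3870.4 in WW and 4298 to 4522 in NE (fold change 0.20, edgeR adjusted p = 0.0372), and Mbd5, a methyl-CpG-binding domain gene, had 2295 to 2348 and 2617 to 2818 (fold change 0.22, edgeR adjusted p = 0.0372). Chd2 was the 1 DEG of 10 tested CHD remodellers and Med13l the 1 DEG of 33 Mediator subunits. No gene on the list of 54 histone and DNA modifying enzymes was a DEG. Of that list 8 members were higher and 2 lower at an unadjusted p-value under 0.05 (14.8% and 3.7% against 9.22% and 8.23%), and the lower ones were the deacetylases Hdac9 (fold change -0.21, edgeR adjusted p = 0.089) and Hdac2 (fold change -0.13, edgeR adjusted p = 0.104). After correction for GC content 3 were higher and 2 lower, against 6.9% and 6.01% of all genes, without WW replicate 20 the counts were 5 and 2, and without WW replicate 21 they were 8 and 4.

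Genes of RNA processing and translation, grouped here after the DEG were known, changed in both directions. Tra2b, a splicing activator, had 2811, 2870.2, 2847 and 2682 normalized counts in WW and 2484, 2339, 2375 and 2295 in NE (fold change -0.24, SE 0.038, edgeR adjusted p = 0.0372). Khdrbs1, which encodes the RNA-binding protein Sam68, had 4985 to 5363 in WW and 4118 to 4583 in NE (fold change -0.25, edgeR adjusted p = 0.0372). Rsrc2, an arginine and serine-rich protein gene, fell from 2365, 2190.3, 2336 and 2354 to 1805, 1879, 1992 and 1999 (fold change -0.27, SE 0.044, edgeR adjusted p = 0.0372), and Ppig, a cyclophilin with an arginine and serine-rich tail, fell by 14%. Naf1, an assembly factor of H/ACA ribonucleoproteins, had 628, 658, 652 and 579 in WW and 518, 504, 473 and 491 in NE (fold change -0.34, SE 0.057, edgeR adjusted p = 0.039). C1d, a cofactor of the nuclear exosome, had 1238, 1162, 1145 and 1193 and 1012, 945, 865 and 1001 (fold change -0.31, SE 0.055, edgeR adjusted p = 0.0453). Eef1e1, a scaffold of the aminoacyl-tRNA synthetase complex (chromosome 13 from 38645691 to 38659028), had 631, 583, 574 and 569 and 479.8, 445, 451 and 480.1 (fold change -0.34, SE 0.056, edgeR adjusted p = 0.0372). RNA-binding genes were also among those that rose, namely Pcbp4, a poly(C)-binding protein, by 16.8%, and Smg5, a factor of nonsense-mediated decay, by 18.3%. Over the list of 33 SR and hnRNP splicing factors Tra2b was the 1 DEG. At an unadjusted p-value under 0.05, 12 members were lower and 1 higher (36.4% and 3.03% against 8.23% and 9.22%), and the median fold change was -0.08. Srsf3 (fold change -0.15, edgeR adjusted p = 0.076) and Srsf7 (fold change -0.32, edgeR adjusted p = 0.0801) were lower in all NE mice and did not pass. Transcripts of this list are poor in GC, with a median of 43.6%, and after correction for GC content 7 members were lower and 2 higher, with a median of -0.04.

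The other DEG were of mixed function. Ptges3, which encodes the HSP90 cochaperone p23, fell by 13.8% (4128 to 4165 counts in NE against 4538 to 5069 in WW), Tceb1, which encodes elongin C of ubiquitin ligases, fell by 12.8%, and Rrm2b, a ribonucleotide reductase subunit gene under p53, fell by 16%. Arxes2 fell by 13.7% (fold change -0.21, edgeR adjusted p = 0.0453). It has a near-identical neighbour, Arxes1, whose fold change was -0.27 with an edgeR adjusted p of 0.0649, and the way reads were split between them is not given in the sources used here. A830082N09Rik (chromosome 10 from 33987216 to 33995055) fell from 1129.9, 1006, 1094 and 1069.6 to 858, 872, 859 and 935 (fold change -0.29, SE 0.051, edgeR adjusted p = 0.0453). Spef1, which encodes a microtubule-binding protein of motile cilia (chromosome 2 from 131170261 to 131174810), rose from 251, 271, 255 and 277 in WW to 381, 361, 397 and 317 in NE (fold change 0.47, SE 0.08, edgeR adjusted p = 0.0422). C77080 (chromosome 4 from 129219578 to 129261404) had 576, 569, 603 and 587 and 699, 815, 732 and 759 (fold change 0.36, SE 0.056, edgeR adjusted p = 0.0372), and Trabd (chromosome 15 from 89076064 to 89087075) had 521, 519.7, 537 and 468 and 635, 641, 632 and 628 (fold change 0.31, SE 0.054, edgeR adjusted p = 0.0453). Smaller rises were those of Samd14 (22.2%), Gfod1 (18.7%), Gatsl2 (15%) and Pdrg1, a prefoldin-like gene (19.8%).

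GC content of the transcript moved with the fold change. The median fold change of all genes rose from -0.08 for transcripts with 35% to 40% GC to 0.06 for those with 55% to 60%. The 30 DEG that rose had a median GC content of 53.4% and the 18 that fell 40.4%, against 49.8% for all genes tested, and all 18 that fell lay below the median of all genes. With gene-wise offsets that remove the trend in GC content, edgeR called 9 genes (0.0588%), all higher, and 8 of these were among the 48 (Serinc2, Chd2, Zfp609, Slc6a6, Tgfb3, Dixdc1, Mbd5 and Slc5a3). None of the 18 lower genes passed under the correction, although their median fold change was still -0.20. For Slco1a4 it became -0.25 (adjusted p = 0.0974), for Plek -0.32 (adjusted p = 0.0823) and for C1d, the poorest in GC, -0.22 (adjusted p = 0.148). Whether the trend comes from the samples or the libraries was not tested.

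**Figure D2:**
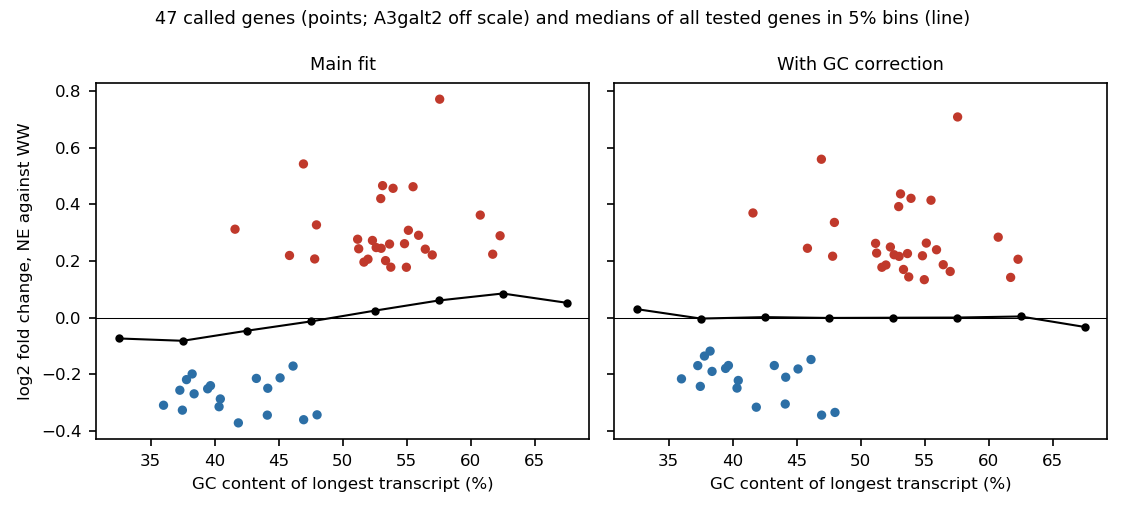
Fold change of 47 DEG (points, y axis, log2 of NE over WW) against the GC content of the longest annotated transcript (x axis, percent), without (left) and with (right) the GC correction. Red points are genes that rose and blue points genes that fell, and the black line joins medians of all tested genes in bins of 5% GC. On the left the line climbs from -0.08 to 0.09 with GC content before the last, sparsely filled bin, and on the right it lies near 0, while the red and blue points stay on their own sides of 0. A3galt2 is off the scale.

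**Figure D3:**
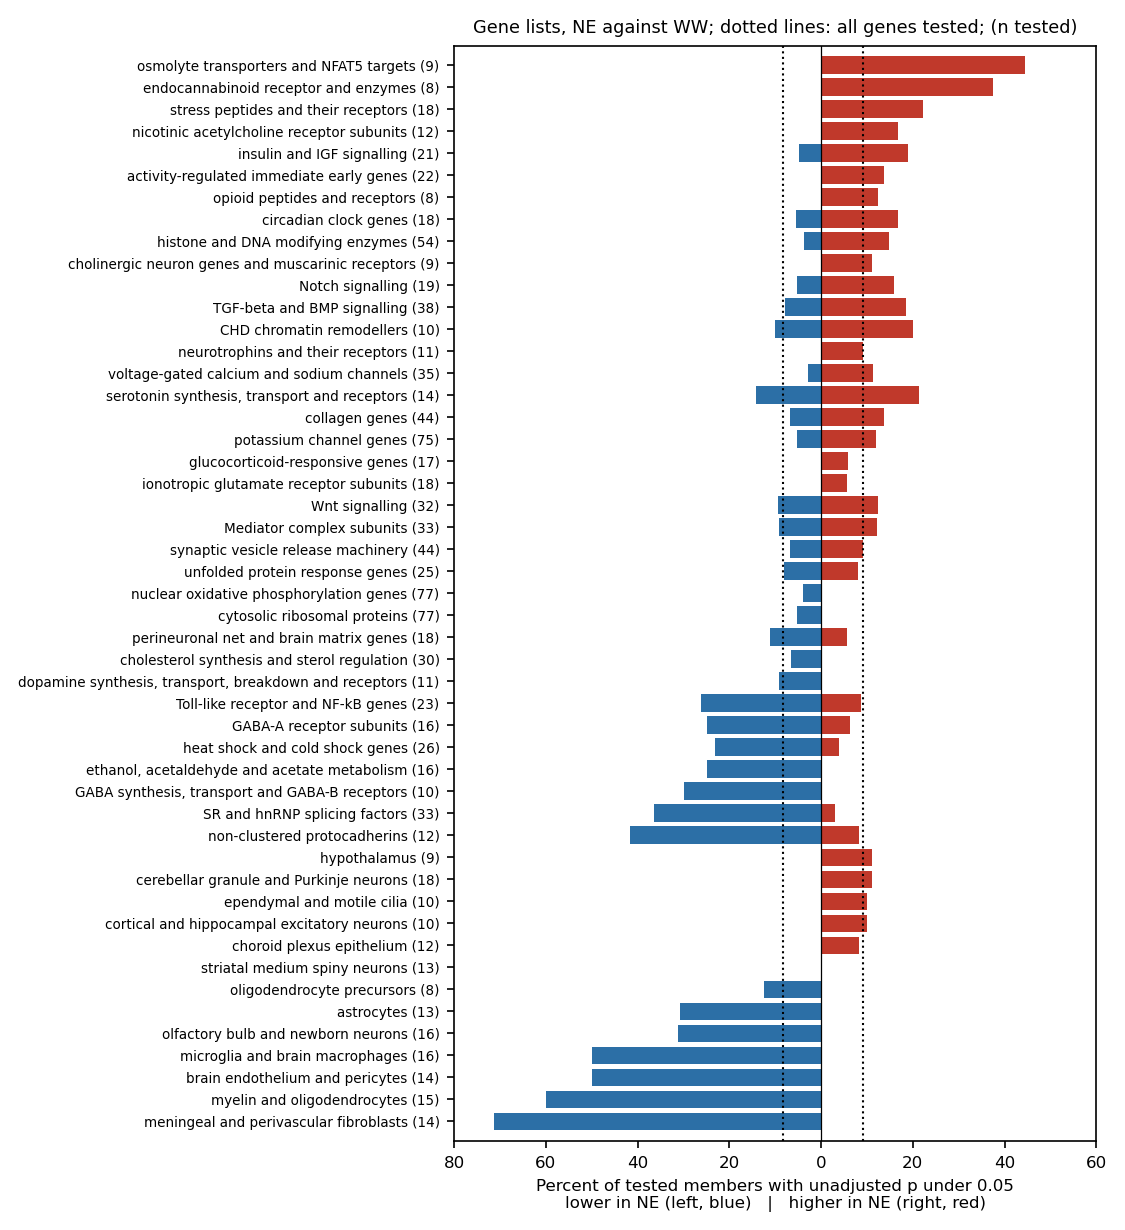
Share of the tested members of each gene list (x axis, percent) that had an unadjusted p-value under 0.05 and were lower (blue, left) or higher (red, right) in NE, with the number tested in brackets, marker lists in the lower block and lists of fewer than 8 tested genes left out. Dotted lines give the shares over all genes tested, 8.23% lower and 9.22% higher. Meningeal and perivascular fibroblasts reach furthest to the left (71.4%) and osmolyte transporters and NFAT5 targets furthest to the right (44.4%).

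Receptors and enzymes of the transmitters on which nicotine and ethanol act held no DEG on all 8 mice. Of 12 tested nicotinic acetylcholine receptor subunits, 2 were higher (16.7%) and none lower at an unadjusted p-value under 0.05. Over all genes tested the shares were 9.22% higher and 8.23% lower. Chrnb2, the main beta subunit of brain receptors, had 2251 to 2437 normalized counts in WW and 2474 to 2561 in NE (fold change 0.11, edgeR adjusted p = 0.169), and Chrna1, the muscle subunit, had 7.63 to 9.66 counts in WW and 10.9 to 15.4 in NE (fold change 0.63, edgeR adjusted p = 0.276), a level at which counting error is large. The synthetic enzyme of acetylcholine, Chat, had a fold change of 0.32 (edgeR adjusted p = 0.197). Among 16 tested GABA-A subunits, 4 were lower and 1 higher at an unadjusted p-value under 0.05 (25% and 6.25%). Gabrg1 (fold change -0.18, edgeR adjusted p = 0.0942) and Gabra3 (fold change -0.11, edgeR adjusted p = 0.165) were lower in all NE mice and did not pass. After GC correction no GABA-A subunit had an unadjusted p-value under 0.05, and the list's median GC content was 42.6%. Without WW replicate 21, 6 subunits were lower and none higher, and 2 of the 6 were DEG. Of the 10 genes of GABA synthesis, transport and GABA-B receptors, the 3 at an unadjusted p-value under 0.05 were lower (30%). Among them was Slc6a13 (fold change -0.30, edgeR adjusted p = 0.159), a GABA and taurine transporter of the meninges. Of 18 ionotropic glutamate receptor subunits 1 was higher (5.56%) and none lower (Grik3, fold change 0.13, edgeR adjusted p = 0.136). Of 7 metabotropic receptors 2 were lower (28.6%), Grm3 (-0.21) and Grm5 (-0.08), with edgeR adjusted p-values of 0.141 and 0.267. Grm4 had 4278, 4055, 3848 and 1939.8 in WW and 4141, 4079.9, 4167 and 4771 in NE. Its fold change of 0.28 (edgeR adjusted p = 0.458) was 0.08 without WW replicate 21, the mouse low in cerebellar markers.

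Monoamine, opioid and endocannabinoid genes did not pass on all 8 mice either. Htr6, a serotonin receptor, had 40.8, 42.9, 49.5 and 44.6 normalized counts in WW and 72.7, 70.8, 63.1 and 59.3 in NE, which did not overlap, with a fold change of 0.58 (SE 0.14, edgeR adjusted p = 0.0825). Htr2c (-0.10, edgeR adjusted p = 0.184) was lower in all NE mice. Over 14 serotonin genes 3 were higher and 2 lower at an unadjusted p-value under 0.05 (21.4% and 14.3% against 9.22% and 8.23% of all genes). The counts were 4 and 0 after GC correction and 1 and 1 without WW replicate 20. Of 11 dopamine genes none was higher and 1 lower (9.09%), the monoamine oxidase Maoa (fold change -0.09, edgeR adjusted p = 0.285). Oprd1, the delta opioid receptor, was higher in all NE mice (587 to 691 against 511 to 586, fold change 0.20, edgeR adjusted p = 0.159), the 1 of 8 opioid genes (12.5%) with an unadjusted p-value under 0.05. Of 8 endocannabinoid genes 3 were higher (37.5%) and none lower. Dagla, which makes 2-arachidonoylglycerol, had 3333, 3294, 3375 and 3261 in WW and 3685, 3827, 3749 and 3645 in NE (fold change 0.17, SE 0.032, edgeR adjusted p = 0.0583), and Abhd6, which breaks it down, had a fold change of 0.14 (edgeR adjusted p = 0.089). Without WW replicate 21, Dagla was a DEG (adjusted p = 0.0382).

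Stress peptides, immediate early and clock genes held no DEG on all 8 mice. Avp, the vasopressin precursor, had 183, 145, 175 and 199 normalized counts in WW and 284, 341, 291 and 167 in NE. NE replicates 2, 3 and 4 lay above all WW mice and NE replicate 5 below 3 of them, and the fold change was 0.62 (SE 0.18, edgeR adjusted p = 0.129). Summed levels of 13 hypothalamus markers, Avp among them, were 1888.9, 2002.2, 1903.5 and 1565.8 in the same NE mice and 1562.9 to 1973.6 in WW, and the part of the sampled hypothalamus in the Avp values was not tested. Crhr1, the receptor of corticotropin-releasing hormone, was higher in all NE mice (881 to 1030.5 against 667 to 852, fold change 0.23, edgeR adjusted p = 0.172), with NE replicate 5 highest. Crhbp, which binds that hormone, had 344 to 411 in WW and 329 to 378 in NE (fold change -0.11, edgeR adjusted p = 0.487). Over 18 stress peptide genes 4 were higher and none lower at an unadjusted p-value under 0.05 (22.2%), and 1 was higher after GC correction. Over 22 immediate early genes none was lower and 3 were higher (13.6% against 9.22% of all genes). These were Jun (0.18), Fosb (0.32) and Btg2 (0.22), with edgeR adjusted p-values of 0.127, 0.16 and 0.262. Without WW replicate 21, 5 immediate early genes were higher and none lower, and without WW replicate 20, 2 were higher and 2 lower. Of 17 glucocorticoid-responsive genes 1 was higher (5.88%), Zbtb16 (0.16, edgeR adjusted p = 0.207). Among 18 clock genes 3 were higher and 1 lower (16.7% and 5.56%), with Tef at 0.16 and Cry1 at -0.16 (edgeR adjusted p = 0.102 and 0.168). Without WW replicate 21, 4 clock genes were higher and 1 lower, 2 of the higher ones DEG, and without WW replicate 20, 1 was higher and 2 lower.

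Genes of ethanol metabolism, protein folding, sterol synthesis, translation and respiration included no DEG on all 8 mice. Of 16 tested genes that oxidise ethanol, acetaldehyde or related substrates or use acetate, 4 were lower and none higher at an unadjusted p-value under 0.05 (25%), among them Aldh1l1 (-0.16), Aldh1a2 (-0.27) and Adh5 (-0.15), with edgeR adjusted p-values of 0.103, 0.137 and 0.157. Aldh1l1 is a marker of astrocytes and Aldh1a2 of meningeal fibroblasts, and the counts of both lists are given with the cell type markers. Of 26 heat shock and cold shock genes 6 were lower and 1 higher (23.1% and 3.85%). Hsp90aa1, a partner of p23, had 46373 to 50726 in WW and 43243 to 45942 in NE (fold change -0.12, edgeR adjusted p = 0.16). After GC correction 2 were lower and none higher. Without WW replicate 21, 7 were lower and 6 higher, 2 of the higher ones DEG, so the balance of the list changed with that mouse. Of 30 cholesterol genes 2 were lower (6.67%), Idi1 (-0.25, edgeR adjusted p = 0.0825) and Hmgcs1 (-0.14, edgeR adjusted p = 0.17). After GC correction 4 were lower and 1 higher, and without WW replicate 21, 4 were lower. Of 25 genes of the unfolded protein response 2 were higher and 2 lower (8% and 8%), against 3 and 0 after GC correction and 4 and 2 without WW replicate 21. Cytosolic ribosomal proteins (4 of 77 lower, 5.19%, none higher, median fold change -0.04) and nuclear oxidative phosphorylation genes (3 of 77 lower, 3.9%, none higher, median -0.03) had few members at an unadjusted p-value under 0.05. After GC correction 9 of the 77 ribosomal protein genes were lower, against 6.01% of all genes, and without WW replicate 21 it was 1. Of the 77 oxidative phosphorylation genes 6 were lower and 1 higher without that mouse.

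Other signalling, channel and matrix lists gave these counts at an unadjusted p-value under 0.05, where 9.22% of all genes were higher and 8.23% lower. Of 21 insulin and IGF genes 4 were higher and 1 lower (19% and 4.76%), led by Irs2, the insulin receptor substrate. It had 1586, 1596, 1661 and 1386 normalized counts in WW and 1956, 1917, 1974 and 1731 in NE (fold change 0.28, SE 0.06, edgeR adjusted p = 0.0654). After GC correction 4 genes of the list were higher and 3 lower. Of 19 Notch genes 3 were higher and 1 lower (15.8% and 5.26%), against 3 and 4 after GC correction and 0 and 1 without WW replicate 20. The lower one was Fabp7, a fatty acid-binding protein of radial glia and a Notch target (1014, 1184, 1192 and 1163 in WW, 903, 832, 589 and 1040.5 in NE, fold change -0.44, edgeR adjusted p = 0.136), in which NE replicate 4 was lowest and NE replicate 5 lay above WW replicate 18. Notch3 had a fold change of 0.15 and the coactivator gene Maml3 of 0.23 (edgeR adjusted p = 0.217 and 0.219), while Notch1 had -0.05 (edgeR adjusted p = 0.61), and Tcf7l2, a Wnt effector, of -0.13 (edgeR adjusted p = 0.241). Of 35 voltage-gated calcium and sodium channel genes 4 were higher and 1 lower (11.4% and 2.86%), led by Cacna1c (0.17, edgeR adjusted p = 0.0929). The counts were 2 and 1 after GC correction and 6 and 3 without WW replicate 21. Of 44 synaptic vesicle genes 4 were higher and 3 lower (9.09% and 6.82%), with Syt3 at 0.15 and Synpr at -0.22 (edgeR adjusted p = 0.0844 and 0.114). Of 12 non-clustered protocadherins, adhesion molecules of neurons, 5 were lower and 1 higher (41.7% and 8.33%), with Pcdh10 at -0.18 (edgeR adjusted p = 0.0629) and a median GC content of 45.5%. After GC correction 3 were lower and none higher. Of 18 brain matrix genes 2 were lower and 1 higher (11.1% and 5.56%), against 4 and 0 without WW replicate 21. Hapln1, a link protein of perineuronal nets, had 914, 985, 1048 and 1077 in WW and 793, 795, 711 and 869 in NE (fold change -0.35, SE 0.068, edgeR adjusted p = 0.0584), and it was a DEG without WW replicate 21 (adjusted p = 0.0422). Of 11 neurotrophin genes 1 was higher (9.09%) and none lower, and of 44 collagen genes 6 were higher and 3 lower (13.6% and 6.82%). The collagen counts were 1 higher and 1 lower without WW replicate 20, 4 and 4 without WW replicate 21, and 0 and 4 after GC correction, so no direction is given for that list.

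Cell type markers of vessels, meninges, microglia and myelin had larger shares of members lower in NE than genes at large, with 1 DEG among them, Slco1a4. These shares were not tested. Of 14 markers of meningeal and perivascular fibroblasts 10 were lower and none higher at an unadjusted p-value under 0.05 (71.4% against 8.23% of all genes), with a median fold change of -0.20. Lum, a matrix proteoglycan, had 120.2 to 149 normalized counts in WW and 98.2 to 111 in NE (fold change -0.39, edgeR adjusted p = 0.112). Col1a1 reached 1157, 628, 1996 and 598 in the WW mice and 542, 655, 652 and 651 in the NE mice, and its fold change was -0.81 (edgeR adjusted p = 0.212). WW replicates 18 and 20 were high, and the other WW mice lay within the range of the NE mice. Without WW replicate 20, 7 of the 14 were lower, against 6.25% of all genes. Of 14 endothelial and pericyte markers 7 were lower and none higher (50%, median -0.13). Itm2a (1333 to 1486 in NE against 1584 to 1695 in WW, fold change -0.22) and the efflux pump Abcb1a (1369 to 1432 against 1491 to 1625, fold change -0.17) were lower in all NE mice, with edgeR adjusted p-values of 0.0629 and 0.0825. Summed levels ran from 16601 to 17669 in NE and from 17914 to 18722 in WW for the endothelial list and did not overlap, and from 8064.2 to 8698.4 and 8577.4 to 11712 for the meningeal list, which did. No marker of either list was at 0 in any mouse. The part of vessel and meningeal content in the values of Slco1a4 and Cav2 was not tested.

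Of 16 microglia and macrophage markers 8 were lower and none higher at an unadjusted p-value under 0.05 (50%, median fold change -0.22). Cd180, a Toll-like receptor homologue, had 75.1, 51.5, 61.2 and 56.1 normalized counts in WW and 13.6, 31.6, 28.6 and 36.2 in NE (fold change -1.16, SE 0.24, edgeR adjusted p = 0.0629). Its groups did not overlap, at low counts. P2ry12, the purinergic receptor of resting microglia, had 942, 954, 1033 and 1190.1 in WW and 759.7, 903, 805 and 802 in NE (fold change -0.33, edgeR adjusted p = 0.082), and Mrc1, the mannose receptor of perivascular macrophages, 203, 151, 196 and 193 and 98.2, 153, 153 and 102 (fold change -0.56, edgeR adjusted p = 0.12). WW replicate 21 had the highest summed level of the list (13802 against 10976 to 12006 in the other WW mice and 9538.3 to 11774 in NE), and without it 4 of the 16 were lower, against 9.65% of all genes, with a median of -0.13. Plek, a gene of myeloid cells, was a DEG also without that mouse (edgeR adjusted p = 0.0274), as were all 48 DEG, so this does not set it apart. It was not a DEG without WW replicate 20 (edgeR adjusted p = 0.112). The part of microglial content in its fall was not tested. Of 23 Toll-like receptor and NF-kB genes 6 were lower and 2 higher (26.1% and 8.7%), among them Hmgb1 (5195 to 5406 in NE against 5649.6 to 6237 in WW, fold change -0.19, edgeR adjusted p = 0.0584) and, in the other direction, Traf6, an adaptor of these receptors (889.9 to 939.6 against 755 to 806, fold change 0.21, edgeR adjusted p = 0.064).

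Of 15 myelin and oligodendrocyte markers 9 were lower and none higher at an unadjusted p-value under 0.05 (60%, median fold change -0.16), with 10 lower without WW replicate 21 and 5 lower without WW replicate 20. Mal, a myelin lipid raft protein, had 10906, 14429, 13495 and 13843 normalized counts in WW and 11356, 10678, 9857 and 12168 in NE (fold change -0.26, edgeR adjusted p = 0.157). WW replicate 18 lay among the NE mice in Mal, so the groups overlapped. Ugt8a, which makes myelin galactolipids, had a fold change of -0.29 (edgeR adjusted p = 0.0825). Of 13 astrocyte markers 4 were lower (30.8% against 8.23% of all genes) and none higher, with Gja1 at -0.18 and Glul at -0.10 (edgeR adjusted p = 0.109 and 0.209). Of 8 markers of oligodendrocyte precursors 1 was lower (12.5%), Pdgfra (-0.13, edgeR adjusted p = 0.142). Of 16 markers of the olfactory bulb and newborn neurons 5 were lower (31.2%) and none higher. Cdhr1, of mitral cells, had 1124, 1142, 1137 and 1153 in WW and 1026, 834, 535 and 907 in NE (fold change -0.46, edgeR adjusted p = 0.143), with NE replicate 4 lowest. Of 18 cerebellar markers 2 were higher (11.1%), and the median fold change of 0.18 became -0.02 without WW replicate 21, when 2 were higher and 4 lower. Markers of cortical and hippocampal excitatory neurons (1 of 10 higher, 10%), striatal neurons (0 of 13) and ependyma (1 of 10 higher, 10%) had small shares, against 9.22% of all genes higher. Of 9 pituitary markers 1 had enough reads to be tested, and 7 were at 0 in at least 1 mouse. Of 7 red blood cell markers 6, all globin genes, are listed at 0 counts in each of the 16 mice, so the count table gives no measure of globin transcripts. At least 98.6% of the exon bases of each of these 6 are shared with another globin gene of the list. The FPKM table, in reads per kilobase and per library size, lists Hbb-bt at 11.6 to 25.2 FPKM in NE and 13.7 to 21.3 in WW, and the groups overlapped.

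More members of the gene lists were DEG without WW replicate 21, the only leave-out that raised the number of DEG (to 283). Leaving out any other single mouse gave from 0 to 11 DEG, and leaving out WW replicates 20 and 21 together gave 0. The genes named here therefore rest on that choice of mice. Genes already described were Id2 (fold change -0.22), Srsf3 (-0.15), Hmgb1 (-0.18), Cd180 (-1.19), Idi1 (-0.28), Ugt8a (-0.31) and Pcdh10 (-0.17), which fell, and Tef (0.18) and Irs2 (0.23), which rose, with edgeR adjusted p-values from 0.0243 (Id2) to 0.0492 (Srsf3). Others, named after their values were seen, were the inducible heat shock genes Hspa1a (0.47) and Hspa1b (0.52), near-identical copies between which reads may be split, the clock repressor Cry2 (0.16), the deacetylase Hdac5 (0.16) and the cortical neuron marker Cux2 (0.20), which rose. The potassium channel Kcnd2 (-0.23), Pcdh7 (-0.15) and the ribonucleoproteins Hnrnpa0 (-0.20) and Hnrnph2 (-0.14) fell, and the edgeR adjusted p-values of these 9 genes ran from 0.0246 (Kcnd2) to 0.0455 (Hspa1a). On all 8 mice none of them was a DEG, and Hspa1a and Hspa1b had fold changes of 0.26 and 0.29.

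**Figure D4:**
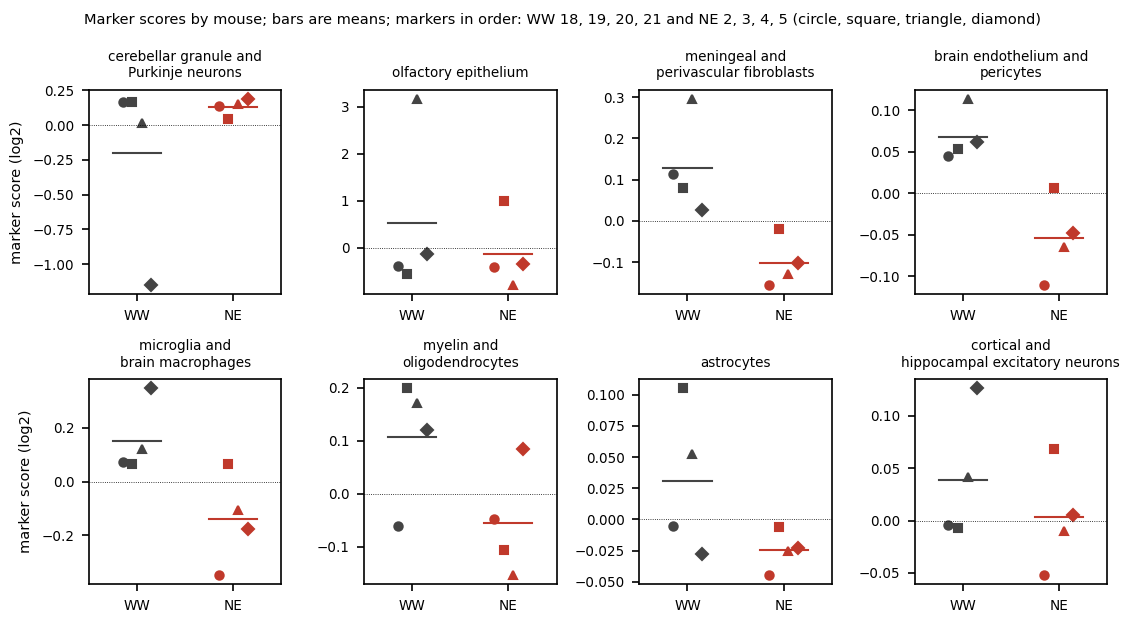
Marker scores by mouse for 8 lists (panels), where a score is the mean, over the list’s genes with at least 10 reads on average, of log2 CPM (reads scaled to library size) centred over the 16 mice of the study (y axis, log2), for WW (grey) and NE (red), with bars at group means. WW replicate 21 (diamond) is at -1.15 for cerebellar neurons and WW replicate 20 (triangle) at 3.17 for olfactory epithelium. In the meningeal and endothelial panels all 4 WW mice lie above all 4 NE mice.

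Whether co-consumption differed from a single substance was tested directly. The study reports that on the last day NE mice drank more ethanol, and had more of it in the blood, than Water-Ethanol mice. In that comparison and in the interaction, the presence of nicotine and the ethanol dose cannot be told apart. Between NE and Water-Ethanol mice edgeR's quasi-likelihood test called 0 of 15319 genes, with 888 (5.8%) at an unadjusted p-value under 0.05, and DESeq2 called 2. Between NE and NW mice it called 0 of 15361 genes, with 1830 (11.9%) at an unadjusted p-value under 0.05, and DESeq2 called 92. The interaction of nicotine and ethanol, that is the ethanol difference among nicotine mice less the ethanol difference among water mice, was fitted to all 16 mice. It gave 0 of 15592 genes, with 1054 (6.76%) at an unadjusted p-value under 0.05, and DESeq2 called 1. Fits that each left out 1 mouse called 0 or 1 genes between NE and Water-Ethanol and 0 in the other 2 contrasts. NW replicate 10 was low in cerebellar markers (summed level 36999, against 65402 to 71423 in the other NW mice) and held pituitary transcripts. Without it, 2277 genes between NE and NW and 1210 in the interaction had an unadjusted p-value under 0.05, and 0 were called in either. The NW fold changes against WW were not fitted without it. A missing call does not show that the groups were alike.

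For the 48 DEG the values in each exposure are set side by side. The 4 WW mice are the controls of all 3 comparisons and the NE mice enter both direct ones, so these values are not independent of each other. The genes were also chosen by their difference between NE and WW, which favours larger values in NE than in the other exposures. The order of the medians across exposures was not tested. The 30 genes that rose had a median fold change of 0.27 in NE, 0.22 in Water-Ethanol and 0.05 in NW. The 18 that fell had medians of -0.26, -0.19 and -0.24 in the same order. Serinc2 had a fold change against WW of 0.77 (SE 0.079) in NE, 0.76 (SE 0.1) in Water-Ethanol and 0.35 (SE 0.088) in NW. Its mean levels were 289 ± 19.2 (SD, n = 4) in NE, 289 ± 38.4 in Water-Ethanol, 218 ± 15.5 in NW and 169.5 ± 9.42 in WW. The Water-Ethanol and NW means were scaled over all mice of the study, the others over the NE and WW mice. Kcnj13 had 0.54, 0.63 and 0.02 in the same order, Tgfb3 0.42, 0.42 and 0.02, and Chd2 0.33, 0.29 and 0.02. In the direct comparison with Water-Ethanol, Kcnj13 differed by -0.09 (SE 0.073, edgeR adjusted p = 0.875) and Tgfb3 by -0.0046 (SE 0.059, edgeR adjusted p = 0.993). In the direct comparison with NW, Kcnj13 differed by 0.52 (SE 0.085, edgeR adjusted p = 0.134) and Chd2 by 0.30 (SE 0.046, edgeR adjusted p = 0.134), neither of which passed.

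The osmolyte transporter Slc5a3 had fold changes against WW of 0.31 (SE 0.055) in NE, 0.39 (SE 0.073) in Water-Ethanol and -0.17 (SE 0.116) in NW. The NW value did not pass (edgeR unadjusted p = 0.167). Slc6a6 had 0.28, 0.18 and 0.06 in the same order. The list of osmolyte genes had median fold changes of 0.17, 0.17 and -0.04 in the same order. Among genes that fell, Cav2 had -0.33 in NE, -0.32 in Water-Ethanol and -0.45 in NW, and Spock3 -0.26, -0.19 and -0.36, so that for both genes the falls in the 2 single exposures summed to more than that in NE. Their interaction terms were 0.45 (SE 0.12, edgeR adjusted p = 0.629) and 0.30 (SE 0.08, edgeR adjusted p = 0.606), at unadjusted p-values of 0.00153 and 0.0014. Spred2 was the DEG that differed most in p between NE and Water-Ethanol, by 0.15 (SE 0.038, unadjusted p = 0.00168, edgeR adjusted p = 0.834). Its fold changes against WW were 0.24 in NE, 0.10 in Water-Ethanol and -0.0094 in NW. Of the 48 DEG, 10 had an unadjusted interaction p-value under 0.05 (6.76% of all genes did), and the NE and WW mice that chose these genes also enter the interaction. None of the 48 passed after adjustment in either direct comparison or in the interaction.

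**Figure D5:**
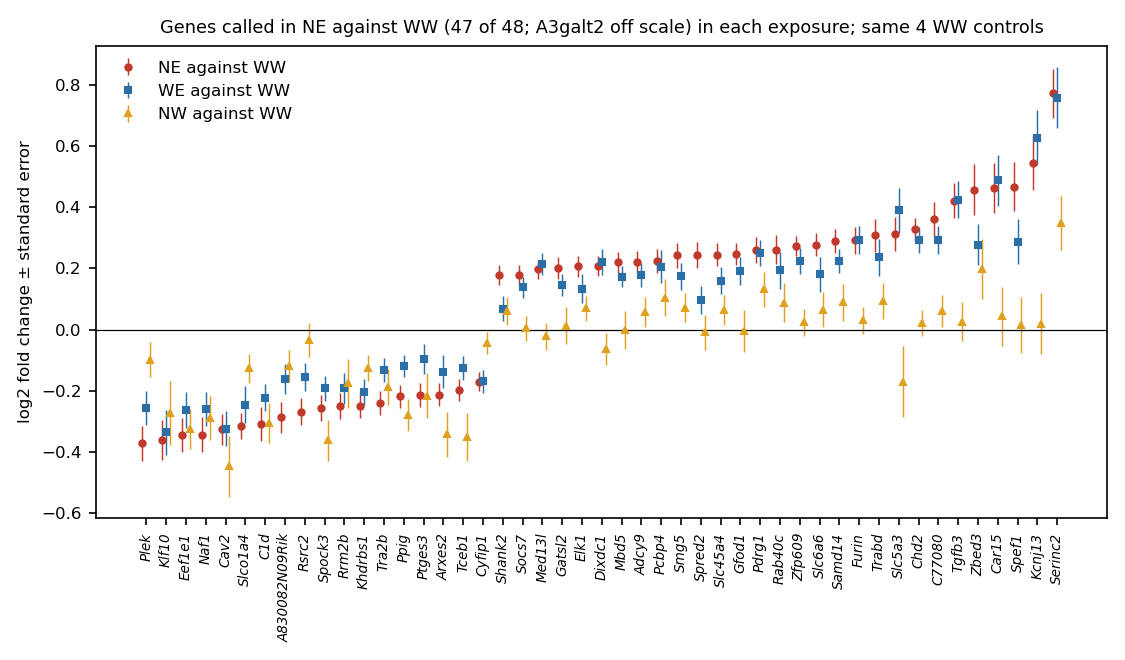
Fold change against WW (y axis, log2, with bars of 1 standard error) of 47 DEG of the NE comparison (x axis, in order of the NE value) in NE (red circles), Water-Ethanol (blue squares) and NW (yellow triangles). The same 4 WW mice are the control of every point, which moves the 3 points of a gene together, and the genes were chosen by the NE value. For Serinc2 the points are at 0.77, 0.76 and 0.35, and for Kcnj13 at 0.54, 0.63 and 0.02. A3galt2 is off the scale.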

How the data were processed

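Read counts per gene and FPKM values of 16 whole-brain RNA-seq libraries, 1 per mouse, were used as deposited. The authors trimmed reads with Trimmomatic 0.32, aligned them to mm10 with TopHat2 and computed FPKM with Cufflinks and Cuffdiff, and the program that made the deposited counts is not given in the sources used here. The labels and the methods name different versions of the library kit, so it is uncertain whether strand was kept. Groups were taken from the labels.

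NE and WW counts were tested with edgeR 4.0.16 (R 4.3.3) by the quasi-likelihood test with TMM factors, filterByExpr and Benjamini-Hochberg adjustment at 0.05. Totals were 27100352 to 31919838 counts per mouse. An edgeR p-value sets the difference between the groups against the spread between 4 mice per group, estimated with help from the other genes. Alternatives were RLE factors, DESeq2 1.42.0, the likelihood-ratio test, other filters (none, or 1 CPM in 4 mice), all 16 mice with and without cerebellum and olfactory bulb scores, limma 3.58.1 on log2(FPKM + 1) for genes with a mean FPKM of at least 1, offsets from a lowess (span 0.3) on the GC content of the longest GENCODE vM21 transcript, and leaving out each mouse. The edgeR quasi-likelihood test and DESeq2 were checked on simulated data. These held no outlying library and no trend in GC content, so the check could not show how the calls depend on them. Figures were drawn with matplotlib 3.10.9 in Python 3.11.15.

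The groups, gene lists and marker lists were chosen with earlier results of these data known. Named genes are all DEG, with full values for the 10 largest changes in each direction and the 5 smallest adjusted p-values, up to 3 members of each list with the smallest p-values, genes the study names for NE, and markers of libraries that stood apart. Of the genes this rule names, 1 is not reported here. Il10, one of the genes the study names, had too few reads to be tested.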

Additional observations from a re-analysis of the deposited data

Results flagged for a closer look

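Among 128 named genes, each examined in the 4 WW and the 4 NE mice (256 sets), 12 sets held a mouse that stood apart from the other 3 by Dixon's test at the 95% level. Chance alone gives about 1 such set in 20, so 12 of 256 is about the number that chance gives. Gabra6 was named because WW replicate 21 stood apart in cerebellar markers, so its place here was known beforehand. WW replicate 21 was low in Gabra6 (1059.2 normalized counts, others 3944 to 4460) and Id2 (2833.9, others 3162 to 3208) and high in Tcf7l2 (1508.9, others 1319 to 1329) and Hspa1b (418.49, others 236.1 to 261.3). WW replicate 18 was low in Fabp7 (1014, others 1163 to 1192) and WW replicate 19 in Rsrc2 (2190.3, others 2336 to 2365). NE replicate 5 was high in Grm4 (4770.8, others 4080 to 4167), Crhr1 (1030.5, others 880.7 to 895.8), Maml3 (635.78, others 560.3 to 564.3) and Hmgb1 (5405.6, others 5195 to 5207) and low in Glul (48445, others 49970 to 50280). NE replicate 2 was low in Col1a1 (541.62, others 650.8 to 655.1).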

How the results depend on the processing

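The number of DEG between NE and WW depended on the test and on the mice included. Against 48 DEG (30 higher, 18 lower), DESeq2 gave 508 (265 and 243), the edgeR likelihood-ratio test 375 (203 and 172), limma on log2(FPKM + 1) 26 (18 and 8) and the GC correction 9 (9 and 0). Leaving out WW replicates 20 and 21 together, chosen after the data were examined, gave 0 (0 and 0). Leaving out 1 mouse gave from 0 to 283 DEG, 0 to 148 higher and 0 to 135 lower. RLE factors, both other filters and both fits of all 16 mice gave a number within 1.5 times of 48, but the fit with marker scores called 22 of the 48 among its 59. Between NE and Water-Ethanol, against 0 DEG, DESeq2 gave 2, no filter 1 and leaving out 1 mouse 0 to 1. Between NE and NW, DESeq2 gave 92 and leaving out 1 mouse 0. For the interaction DESeq2 gave 1, the marker scores 1 and leaving out 1 mouse 0. Over 863 combinations of a DEG and an alternative, 389 kept the call, 474 lost it and 0 changed sign. Over 1437 combinations for the other named genes, 88 gained a call and 3 changed sign. All 3 were Gabra6, at 0.09 on all 8 mice, -0.204 with marker scores, -0.2446 without WW replicates 20 and 21, and from -0.2036 (without WW replicate 21) to 0.2528 when 1 mouse was left out. The causes were not tested. No paired analysis was made, because the study assigned mice to the groups at random and the sources used here give no pairing. With 4 mice per group, small changes in genes of low counts could not be detected.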
